A study of Mus musculus with 6 samples.

Results

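Transcripts of 9 calcineurin and NFAT genes were measured by RNA-seq in the gastrocnemius, the large calf muscle, of mice lacking Tmem182, a gene for a membrane protein of striated muscle. The 9 genes were chosen by symbol, Ppp3ca, Ppp3cb, Ppp3r1, Rcan1, Rcan2 and Nfatc1 to Nfatc4, and each matched 1 of the 19458 genes listed. There were 3 libraries from Tmem182-/- mice (knockout) and 3 from wild-type mice, all of strain C57BL/6 and aged 9 weeks. The allele is given as a homozygous loss with no promoter or Cre named, and no treatment is stated for either group. Whether a library stands for 1 mouse is not stated. The p-values therefore cover only the spread among these 6 samples. That spread exceeded counting noise in every pair of libraries (chi-square over its degrees of freedom 13.6 or more), and its split between animals and handling cannot be told apart.

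Calcineurin is a phosphatase switched on by calcium and calmodulin, made of a catalytic A subunit and a regulatory B subunit. It removes phosphates from NFAT transcription factors, which then enter the nucleus, and RCAN proteins bind calcineurin and restrain it. In skeletal muscle the pathway is known for its part in the slow, oxidative fibre programme and in the response to nerve activity.

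Rcan1 and Rcan2 were the members that varied most between libraries, and promoter sequence of both is shown for that reason. Rcan1 is known to be transcribed in part from an internal promoter that answers to calcineurin through NFAT, so both of its starts in the RefSeq table are given. The upstream one is labelled first, although the annotated gene begins further upstream, at 92470867 on the minus strand. Of 3 Rcan2 windows, the others overlap annotated exons and are not printed. Each line holds the 250 bases before a RefSeq transcript start on GRCm38.p6, read 5′ to 3′ on the gene's strand. Capitals mark the NFAT core GGAAA or its reverse TTTCC.
Rcan1 internal start, chr16:92400079-92400328, minus strand: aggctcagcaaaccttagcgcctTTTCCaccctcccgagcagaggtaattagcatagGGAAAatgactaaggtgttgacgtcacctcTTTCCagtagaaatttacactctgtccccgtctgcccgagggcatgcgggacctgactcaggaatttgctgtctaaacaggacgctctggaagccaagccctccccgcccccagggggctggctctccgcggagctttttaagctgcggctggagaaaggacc
Rcan1 first start, chr16:92466170-92466419, minus strand: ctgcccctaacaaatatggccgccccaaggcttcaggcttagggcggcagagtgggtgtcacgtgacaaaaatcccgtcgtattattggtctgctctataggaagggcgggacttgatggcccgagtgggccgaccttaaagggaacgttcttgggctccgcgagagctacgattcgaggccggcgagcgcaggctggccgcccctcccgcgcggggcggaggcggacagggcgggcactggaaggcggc
Rcan2 downstream start, chr17:43952749-43952998, plus strand: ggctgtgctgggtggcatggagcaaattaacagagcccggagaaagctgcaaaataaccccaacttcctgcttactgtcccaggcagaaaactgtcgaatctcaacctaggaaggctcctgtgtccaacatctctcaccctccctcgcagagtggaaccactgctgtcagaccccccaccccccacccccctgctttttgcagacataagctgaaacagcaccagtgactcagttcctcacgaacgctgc
The internal Rcan1 window held 3 NFAT cores, while the first Rcan1 window and the downstream Rcan2 window held 0. Of the Rcan2 windows not printed, chr17:43801102-43801351 held 2 cores and chr17:43801601-43801850 held 0. Both strands were searched for each motif. Of all 32851 promoter windows of the same length, 55.6% held at least 1 core and 6.4% held 3 or more. The longer form GGAAAA, whose matches lie within those of the core, occurred 2 times in the internal Rcan1 window and in 20.4% of all windows at least once. The AP-1 motif TGANTCA occurred 1 time in the internal Rcan1 window and 1 time in the downstream Rcan2 window, against 6.7% of all windows. The palindrome TGACGTCA, the cyclic AMP response element, occurred 1 time in the internal Rcan1 window, against 1.5% of all windows.

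Promoter windows were found in the RefSeq table for 7 of the 9 members, without Ppp3ca and Nfatc1, 12 windows in all, and 7 of these windows (58.3%) held the core. Windows with 3 cores were found for Nfatc2, Ppp3cb and Nfatc4 besides Rcan1. These are letter matches, not binding sites. The deposited values are per gene, so the Rcan1 starts cannot be told apart in the data.

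Total expected counts, estimated reads per gene that need not be whole, ranged from 16212341 to 18672630 per library. Tmem182, the targeted gene, was at 6.23, 4.30 and 2.17 FPKM in knockout libraries 1, 2 and 3, against 147.5, 121.4 and 121.0 FPKM in wild-type libraries 1, 2 and 3. The source labels of knockout libraries 2 and 3 name Tmem183 and Tmem184, while the genotype label names Tmem182 for all 3. The tissue label gives skeletal muscle while the protocol text speaks of cells in culture. All 10 skeletal muscle markers were above 0 throughout, with sums of 73470 to 101300 FPKM, and so were the 5 endothelial and 4 Schwann cell markers of whole tissue. Knockout library 1 stood apart: its 10 most abundant genes took 22% of counts, against 28.2% to 31.9% in the other 5, and its TMM scaling factor was 1.19, against 0.933 to 1.04. A slow-fibre level, the mean log2 CPM of 8 slow contractile and calcium pump genes, was 8.43, 8.21 and 3.31 in knockout libraries 1, 2 and 3 and 6.83, 3.83 and 6.77 in wild-type libraries 1, 2 and 3. Library 3 of the knockout and library 2 of the wild type were thus low. The other 4 were higher, with knockout libraries 1 and 2 above wild-type libraries 1 and 3.

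None of the 9 members passed an adjusted p of 0.05 between genotypes in edgeR's quasi-likelihood test, none reached an unadjusted p under 0.05, and DESeq2 called 0 as well. Of 12774 genes tested, 1 was called (0.00783%), Tmem182 itself, which fell by 5.02 on the log2 scale (SE 0.30, edgeR adjusted p = 0.00391), and 453 (3.55%) had an unadjusted p under 0.05. Leaving out 1 library, Tmem182 fell by 4.75 to 5.26 on the log2 scale, but missed the threshold without knockout library 2 (edgeR adjusted p = 0.0716) and with wild-type library 3 left out (edgeR adjusted p = 0.0529). The members' median log2 fold change was -0.05, beside 0.00 over all genes tested, with 3 members above 0 and 6 below, where 51.1% of all genes were above 0. The groups overlapped for all 9 members in log2 CPM, whereas they did not overlap for 1173 genes (9.18%) of all tested. All 9 members passed the filter on low counts.

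**Figure D1:**
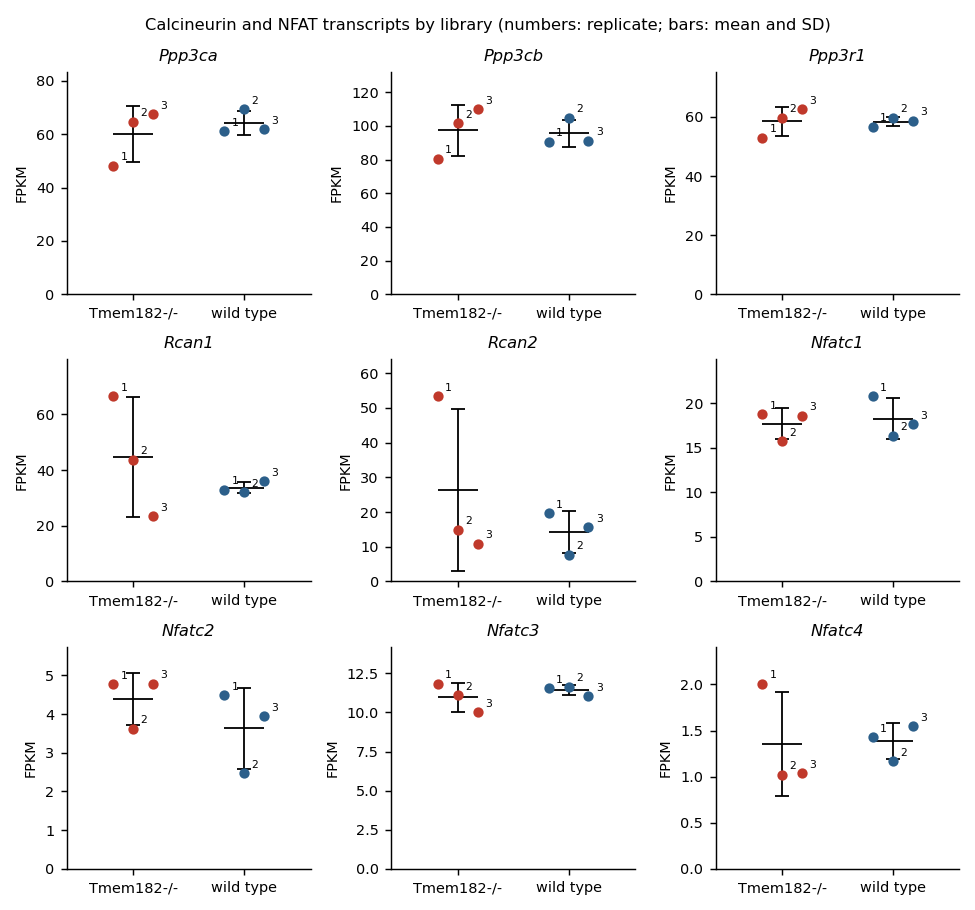
FPKM of each calcineurin and NFAT transcript (vertical axes, linear from 0) in 3 Tmem182-/- libraries (red, left) and 3 wild-type libraries (blue, right). Points are libraries with their replicate number, and bars give the mean and SD; Rcan1 and Rcan2 reached 66.55 and 53.35 FPKM in knockout library 1, above every other library.

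The calcineurin core was abundant, and its values overlapped between genotypes for all 3 subunits. Ppp3ca encodes the alpha isoform of the catalytic subunit and lies on chromosome 3 from 136670124 to 136937727, plus strand, of GRCm38. It was at 48.12, 64.6 and 67.59 FPKM in Tmem182-/- muscle, against 61.13, 69.45 and 61.81 FPKM in wild-type muscle. Knockout library 1 was lowest and the other knockout libraries lay within the wild-type range. Its log2 fold change, knockout over wild type, was -0.12 (SE 0.22, 95% interval -0.62 to 0.38, edgeR adjusted p = 0.994).

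Ppp3cb, the beta isoform of the catalytic subunit (chromosome 14, 20499364 to 20546573, minus strand), was the most abundant member. It was at 80.44, 101.5 and 110.1 FPKM in Tmem182-/- muscle, against 90.58, 104.8 and 91.29 FPKM in wild-type muscle. Knockout libraries 1 and 3 were the lowest and the highest of the 6. Between genotypes Ppp3cb differed by -0.02 on the log2 scale (SE 0.21, 95% interval -0.51 to 0.47, edgeR adjusted p = 0.997), and an antisense gene, 1810062O18Rik, overlaps its exons.

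Ppp3r1, the regulatory subunit that binds calcium (chromosome 11, 17159263 to 17200375, plus strand), varied least of the calcineurin subunits. It was at 53.04, 59.8 and 62.7 FPKM in Tmem182-/- muscle, against 56.63, 59.72 and 58.74 FPKM in wild-type muscle. The knockout values surrounded the wild-type values. Ppp3r1 had a log2 fold change of -0.05 (SE 0.16, 95% interval -0.43 to 0.33, edgeR adjusted p = 0.994), and the span of Wdr92 on the same strand touches its exons. When knockout library 1 was left out, Ppp3ca, Ppp3cb and Ppp3r1 had log2 fold changes of 0.09, 0.18 and 0.11, all above 0, and none passed. Without wild-type library 2 that of Ppp3cb was 0.07, and that of Ppp3ca, still below 0, was -0.05.

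The RCAN transcripts varied more among the knockout libraries than those of any other member. Rcan1 (chromosome 16, 92391953 to 92470867, minus strand), the stress-induced calcineurin regulator, was at 66.55, 43.72 and 23.49 FPKM in Tmem182-/- muscle, against 32.9, 32.14 and 36.0 FPKM in wild-type muscle. The 3 wild-type libraries lay close together, while knockout libraries 1 and 2 were above all of them and knockout library 3 was below. Its level spanned 2.83-fold within the knockout and 1.12-fold within wild type. In the fit to counts Rcan1 had a log2 fold change of 0.29 (SE 0.26, 95% interval -0.32 to 0.90, edgeR adjusted p = 0.994), or 0.03 without knockout library 1 and 0.55 leaving out knockout library 3. The antisense gene Gm46555 overlaps its exons.

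Rcan2 (chromosome 17, 43801351 to 44039516, plus strand), the related regulator of brain, heart and muscle, had the widest range of all members. It was at 53.35, 14.91 and 10.87 FPKM in Tmem182-/- muscle, against 19.68, 7.71 and 15.58 FPKM in wild-type muscle. Knockout library 1 was far above the other 5, which overlapped between genotypes. The 6 libraries spanned 6.92-fold in FPKM and 5.57-fold in TMM-scaled CPM. Rcan2 had a log2 fold change of 0.74 (SE 0.53, 95% interval -0.49 to 1.96, edgeR adjusted p = 0.994). It was -0.09, below 0, with knockout library 1 left out, and 0.45 with wild-type library 2 left out.

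**Figure D2:**
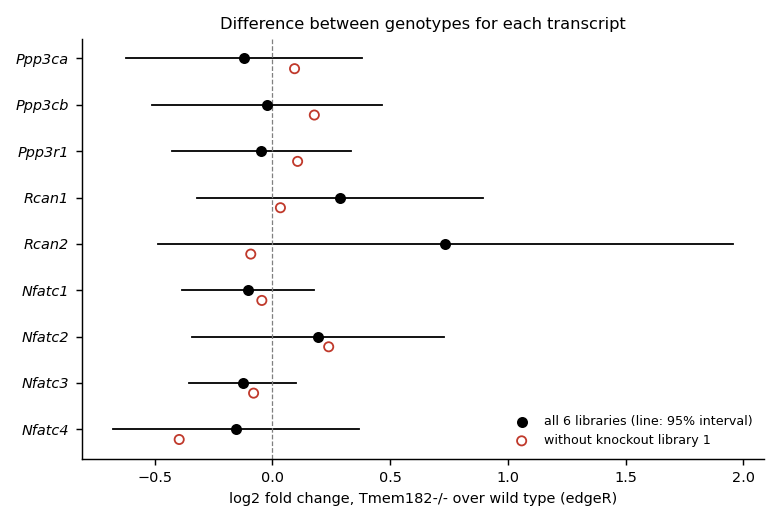
Log2 fold change of each transcript, Tmem182-/- over wild type (horizontal axis), from edgeR. Filled points and lines give all 6 libraries with 95% intervals, and open red points give the value without knockout library 1; every interval includes 0, and Rcan2 moves to -0.09 without that library.

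The NFAT transcripts kept one order of abundance, Nfatc1 above Nfatc3 above Nfatc2 above Nfatc4, in all 6 libraries. Nfatc1 (chromosome 18, 80606205 to 80713071, minus strand), a factor known to be needed for slow-fibre gene expression, was at 18.78, 15.71 and 18.58 FPKM in Tmem182-/- muscle, against 20.77, 16.36 and 17.62 FPKM in wild-type muscle. The groups were interleaved. Nfatc1 had a log2 fold change of -0.10 (SE 0.12, 95% interval -0.38 to 0.18, edgeR adjusted p = 0.994).

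Nfatc3 (chromosome 8, 106058840 to 106130537, plus strand), an NFAT factor of muscle and lymphocytes, was at 11.85, 11.09 and 10 FPKM in Tmem182-/- muscle, against 11.57, 11.65 and 11.05 FPKM in wild-type muscle. It had the smallest range of all members in TMM-scaled CPM, 1.22-fold over the 6 libraries. The difference on the log2 scale was -0.13 (SE 0.10, 95% interval -0.35 to 0.10, edgeR adjusted p = 0.994), and the span of Esrp2 on the other strand touches its exons.

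Nfatc2 (chromosome 2, 168476410 to 168601657, minus strand), known from T cells and from myotube growth, was at 4.77, 3.62 and 4.79 FPKM in Tmem182-/- muscle, against 4.49, 2.47 and 3.94 FPKM in wild-type muscle. Wild-type library 2 was lowest. The difference on the log2 scale was 0.19 (SE 0.23, 95% interval -0.34 to 0.73, edgeR adjusted p = 0.994), or -0.04 leaving out wild-type library 2 and 0.07 without knockout library 3. T cell markers, 5 genes that would mark lymphocytes in the tissue, summed to 0.29 to 0.74 FPKM in Tmem182-/- muscle, against 0.33 to 0.40 FPKM in wild-type muscle, with Cd3g at 0 in all 6 libraries.

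Nfatc4 (chromosome 14, 55823144 to 55833943, plus strand), the least abundant NFAT, was at 2.01, 1.02 and 1.04 FPKM in Tmem182-/- muscle, against 1.43, 1.17 and 1.55 FPKM in wild-type muscle. Knockout library 1 was highest and the other knockout libraries were below all of wild type. The difference on the log2 scale was -0.16 (SE 0.23, 95% interval -0.68 to 0.37, edgeR adjusted p = 0.994), or -0.40 without knockout library 1, -0.04 without knockout library 2 and -0.03 with wild-type library 3 left out. It rested on 72.7 to 128.5 expected counts per library, the fewest of any member.

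Ordered by mean FPKM over 6 libraries, which is scaled by transcript length, the members were Ppp3cb, Ppp3ca, Ppp3r1, Rcan1, Rcan2, Nfatc1, Nfatc3, Nfatc2 and Nfatc4, at 96.4, 62.1, 58.4, 39.1, 20.4, 17.97, 11.2, 4.01 and 1.37 FPKM. Ppp3cb lay above Ppp3ca in 6 of 6 libraries with no overlap of their ranges. Ppp3ca and Ppp3r1 overlapped in range, as did Ppp3r1 and Rcan1, with the first of each pair higher in 5 of 6 libraries. Rcan2 exceeded Nfatc1 in 1 library only, knockout library 1, although its mean was higher.

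Among 7 shares and ratios computed within each library, the balance between the catalytic isoforms was the one in which the groups did not overlap. Among single genes tested, the groups did not overlap in log2 CPM for 9.18%. Ppp3ca made up 37.4%, 38.9% and 38.0% of the summed FPKM of Ppp3ca and Ppp3cb in the knockout and 40.3%, 39.9% and 40.4% in wild-type muscle. All 3 knockout libraries were below all 3 wild-type libraries, and the means were 38.1% ± 0.74 in Tmem182-/- muscle, against 40.2% ± 0.28 in wild-type muscle (SD, n = 3 each). In the two-sided exact permutation test p was 0.1, which is the lower limit for 3 against 3 libraries, and 0.7 after adjustment over the 7 shares and ratios compared. A p under 0.05 was thus out of reach for any of them. The difference was -2.05 percentage points and ran from -2.44 to -1.70 when each library was left out in turn. Its sign could not turn there, because the groups do not overlap. The expected counts of both genes were whole numbers in 6 of 6 libraries.

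In the other 6 the groups overlapped. The sum of Ppp3ca and Ppp3cb over Ppp3r1 was 2.42, 2.78 and 2.83 in the knockout and 2.68, 2.92 and 2.61 in wild type (exact permutation p = 0.8). Rcan1 made up 55.5%, 74.6% and 68.4% of the RCAN pair in the knockout and 62.6%, 80.7% and 69.8% in wild-type muscle (exact permutation p = 0.5). Nfatc1 held 51.4% ± 2.26 of the NFAT sum in Tmem182-/- muscle, against 52.5% ± 1.53 in wild-type muscle (SD, n = 3 each, exact permutation p = 0.5). Nfatc2 held 12.7% ± 1.2 in Tmem182-/- muscle, against 10.4% ± 2.21 in wild-type muscle (SD, n = 3 each, exact permutation p = 0.3), with wild-type library 2 lowest at 7.80%. Nfatc3 and Nfatc4 held 32.0% and 3.88% in Tmem182-/- muscle, against 33.1% and 3.99% in wild-type muscle (exact permutation p = 0.6 and 1.0). After adjustment over the 7 comparisons the p-values of these 6 ranged from 0.84 to 1.0.

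**Figure D3:**
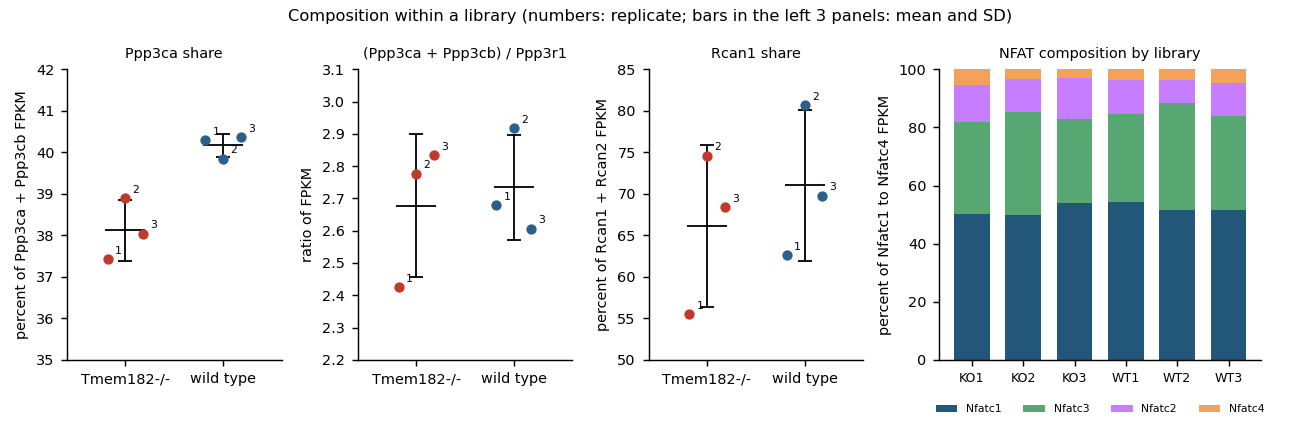
Shares and ratios of FPKM within each library, for the catalytic pair, the catalytic sum over Ppp3r1, the RCAN pair (left 3 panels, Tmem182-/- left of wild type, points with replicate numbers, bars mean and SD, axes not from 0) and the NFAT genes (right, stacked percent per library). The Ppp3ca share is 37.4% to 38.9% in Tmem182-/- muscle, against 39.9% to 40.4% in wild-type muscle, and Nfatc1 holds the most of the NFAT sum in each library.

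Because the pathway is known for its link to slow fibres and the slow-fibre level varied within both genotypes, each gene was also fitted on that level beside genotype. A slope is the change in log2 CPM for each unit of slow-fibre level, and edgeR's adjusted p under 0.05 called 11 of 12774 genes (0.0861%), of which 8 are the genes that define the level; 10 had a positive slope (0.0783%) and 1 a negative one (0.00783%). No member was called, while 2 of 9, Rcan1 and Rcan2, had an unadjusted p under 0.05, as did 1365 genes (10.7%) of all tested; DESeq2 also called 0 members. The slope was 0.31 for Rcan2 (SE 0.09, 95% interval 0.10 to 0.51, edgeR adjusted p = 0.376) and 0.15 for Rcan1 (SE 0.04, 95% interval 0.05 to 0.25, edgeR adjusted p = 0.376). The catalytic subunits had slopes of -0.08 (Ppp3ca, SE 0.05) and -0.09 (Ppp3cb, SE 0.04), and Ppp3r1 one of -0.06 (SE 0.04). The NFAT slopes were -0.03 for Nfatc1, 0.01 for Nfatc2, -0.01 for Nfatc3 and 0.07 for Nfatc4, with SE between 0.03 and 0.06.

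These slopes depended on single libraries. Knockout library 2 had a high slow-fibre level but Rcan2, Ppp3ca and Ppp3cb levels within the range of wild type. Without it, calls over all genes rose from 11 to 1168, beside 12774 genes tested in the main fit. Of the 9 members, 3 were among the 1168. These were Rcan2 at 0.38, Ppp3ca at -0.13 and Ppp3cb at -0.13 (edgeR adjusted p = 0.000313, 0.0325 and 0.0296). Calls thus rose across genes at large as well as for members. Whether members were called more often than other genes was not tested. In each other fit that left out 1 library, 0 members were called. Without knockout library 1 the Rcan2 slope was 0.18 and those of Ppp3ca and Ppp3cb were -0.04 and -0.05. The Rcan1 slope was 0.02 without knockout library 3.

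Markers of other cell types were set beside these levels. The 5 endothelial markers, all above 0 in all libraries, summed to 128.8, 73.61 and 52.11 FPKM in knockout libraries 1, 2 and 3 and 92.72, 52.59 and 73.82 FPKM in wild-type libraries 1, 2 and 3. All 5 had an unadjusted slope p under 0.05 on the slow-fibre level, a median slope of 0.16, and their highest value in knockout library 1, and none was called. The 4 Schwann cell markers, also above 0 throughout, summed to 299.3, 47.7 and 84.95 FPKM in Tmem182-/- muscle, against 196.0, 19.3 and 36.79 FPKM in wild-type muscle. Their median slope was 0.28, with none at an unadjusted p under 0.05. The part of these cells in the Rcan1 and Rcan2 values was not tested. In bulk muscle fewer cells of a type and less RNA per cell cannot be told apart.

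**Figure D4:**
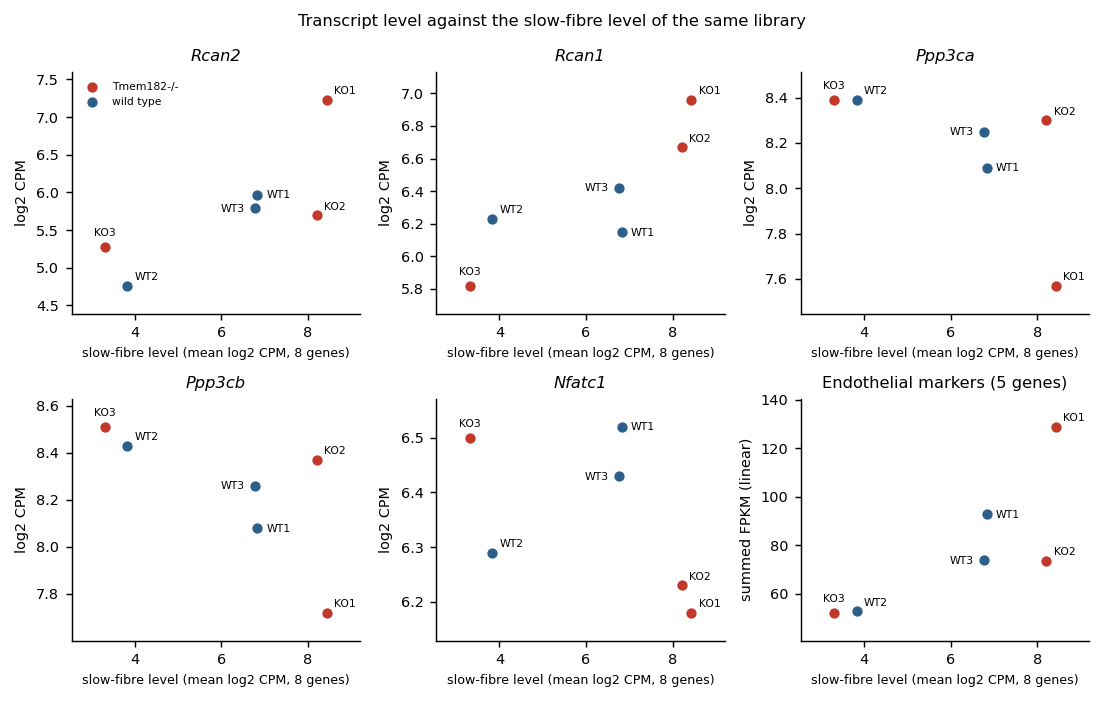
Level of 5 members (log2 CPM) and the summed FPKM of 5 endothelial markers (vertical axes) against the slow-fibre level of the same library (horizontal axis, mean log2 CPM of 8 genes), with Tmem182-/- libraries in red and wild-type libraries in blue. Rcan2 and the endothelial sum are highest, and Ppp3ca and Ppp3cb lowest, in knockout library 1. The slow-fibre levels fall into 2 low and 4 higher libraries, with knockout libraries 1 and 2 highest.

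The genes most like the 3 most variable members were sought among 10329 genes with a mean of at least 1 FPKM, by the root mean square difference of centred log2 CPM over 6 libraries. Rcan2 was nearest to Ptpn3, a protein tyrosine phosphatase (0.061 on the log2 scale), then Myh10, a non-muscle myosin heavy chain (0.116), and Cd36, a fatty acid transporter of oxidative fibres and capillaries (0.151). Ptpn3 was at 35.33, 10.28 and 7.53 FPKM in Tmem182-/- muscle, against 14.09, 4.99 and 11.28 FPKM in wild-type muscle. It shared the order of libraries with Rcan2, which follows from the search for the nearest profile. Rcan1 was nearest to Aox1, an aldehyde oxidase (0.101), then Cep85l (0.11) and Tmem62 (0.124). Nfatc2 was nearest to Zfp967 (0.076), Top2b, a DNA topoisomerase (0.099), and Nemf, a factor of ribosome quality control (0.103).

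Genes that act around calcineurin were counted by role. Of 18 further calcineurin genes 17 were tested, and 0 passed in either direction, with a median log2 fold change of -0.01. Ppp3cc, the third catalytic isoform, was at 12.8 ± 1.06 FPKM in the knockout, against 11.5 ± 1.03 FPKM in wild-type muscle (SD, n = 3 each), and differed by 0.10 on the log2 scale (SE 0.12), and Ppp3r2, the testis regulatory subunit, was listed at 0 in all 6 libraries. Myoz2, the slow-fibre calcineurin-binding protein calsarcin of the Z-disc, was at 162.2, 64.45 and 15.7 FPKM in Tmem182-/- muscle, against 62.12, 4.02 and 40.49 FPKM in wild-type muscle. Its log2 fold change was 1.04 (SE 0.93), and became 0.24 when knockout library 1 was left out or 0.52 when wild-type library 2 was. Its slope on the slow-fibre level was 0.65 (SE 0.13, edgeR adjusted p = 0.215). Homer2, a scaffold that competes with calcineurin for NFAT, was highest in knockout library 1 and lowest in wild-type library 2, at 11.2, 6.53 and 3.82 FPKM in Tmem182-/- muscle, against 6.79, 2.57 and 5.15 FPKM in wild-type muscle, with a log2 fold change of 0.47 (SE 0.38) and a slope of 0.25 (SE 0.05, edgeR adjusted p = 0.201). The slopes of Homer2 and Myoz2 passed in the DESeq2 Wald test, with adjusted p = 0.000631 and 0.0219. That DESeq2 fit called 143 slopes over all genes, against 11 in edgeR. Homer3 and Cabin1, another calcineurin inhibitor, had log2 differences of -0.33 (SE 0.21) and -0.12 (SE 0.10). With 1 library left out, Homer2 ran from 0.15 to 0.73, Homer3 from -0.46 to -0.19 and Cabin1 from -0.18 to -0.05. Calm3, a calmodulin gene, and Ppia, which encodes cyclophilin A, had slopes of -0.12 and -0.05 on the slow-fibre level (edgeR adjusted p = 0.477 and 0.488).

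Kinases that rephosphorylate NFAT gave 0 calls among 11 tested, with their log2 fold changes centred on a median of -0.03 in a range of -0.22 to 0.09. Dyrk1b, Csnk1d, Csnk1e and Gsk3b differed on the log2 scale by -0.22 (SE 0.15), -0.12 (SE 0.10), -0.13 (SE 0.13) and 0.09 (SE 0.13). With knockout library 1 left out these were -0.09, -0.07, -0.004 and 0.20, and Gsk3b was at 0.01 with knockout library 2 left out. On the slow-fibre level the kinases with the smallest p were Mapk9, Gsk3a, Csnk1d and Csnk1a1, at slopes of -0.09, -0.06, -0.03 and -0.05 (edgeR adjusted p between 0.486 and 0.577). Calcium entry and release genes gave 0 calls among 13 tested of 14 listed, with a median of 0.00. The channel genes Trpc6, Itpr1 and Orai2 differed on the log2 scale by 0.40 (SE 0.35), 0.21 (SE 0.19) and 0.26 (SE 0.27), and the level of Trpc6 and Orai2 did not exceed 0.40 FPKM in any library. With 1 library left out, Itpr1 ran from 0.10 to 0.39, Trpc6 from 0.23 to 0.56 and Orai2 from 0.18 to 0.42. The slopes on the slow-fibre level were 0.16 for Itpr3 and 0.07 for Itpr2, both calcium release channels, and -0.11 for Stim2, a calcium sensor of the reticulum (edgeR adjusted p between 0.449 and 0.477).

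Factors that partner with NFAT or are other targets of calcineurin gave 0 calls among 13 tested, with a median log2 fold change of -0.13. The groups did not overlap in log2 CPM for 4 of the 13, against 9.18% of all genes tested; 2 were higher in the knockout (4.67% of all genes) and 2 lower (4.51%). Of these, Junb, an AP-1 subunit, was at 11.6, 6.58 and 6.58 FPKM in Tmem182-/- muscle, against 4.83, 4.87 and 5.30 FPKM in wild-type muscle (a log2 fold change of 0.62, SE 0.17, edgeR adjusted p = 0.994). Mef2c, a muscle transcription factor, was at 185.1, 157.8 and 161.4 FPKM in Tmem182-/- muscle, against 144.2, 118.7 and 133.2 FPKM in wild-type muscle (a log2 fold change of 0.28, SE 0.13, edgeR adjusted p = 0.994). Both were above wild type in 3 of 3 knockout libraries. The other 2, Mef2d and the CREB coactivator gene Crtc2, were below wild type in log2 CPM but overlapped in FPKM. Their log2 differences were -0.13 (SE 0.12) and -0.13 (SE 0.09), and they are named after their values were seen. Mef2a, also named after its values were seen, overlapped in log2 CPM but not in FPKM. It was at 31.37, 31.22 and 30.47 FPKM in Tmem182-/- muscle, against 27.76, 24.97 and 26.59 FPKM in wild-type muscle. In log2 difference Crtc1 was at -0.15 (SE 0.10) and Jun, another AP-1 subunit, at -0.38 (SE 0.25). Jun was at 27.3, 15.35 and 20.41 FPKM in Tmem182-/- muscle, against 38.77, 20.13 and 19.38 FPKM in wild-type muscle, and its log2 difference was -0.05 with wild-type library 1 left out. The slopes of Tfeb, Junb, Mef2d and Crtc1 on the slow-fibre level were -0.09, 0.04, -0.02 and -0.02 (edgeR adjusted p between 0.484 and 0.773).

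**Figure D5:**
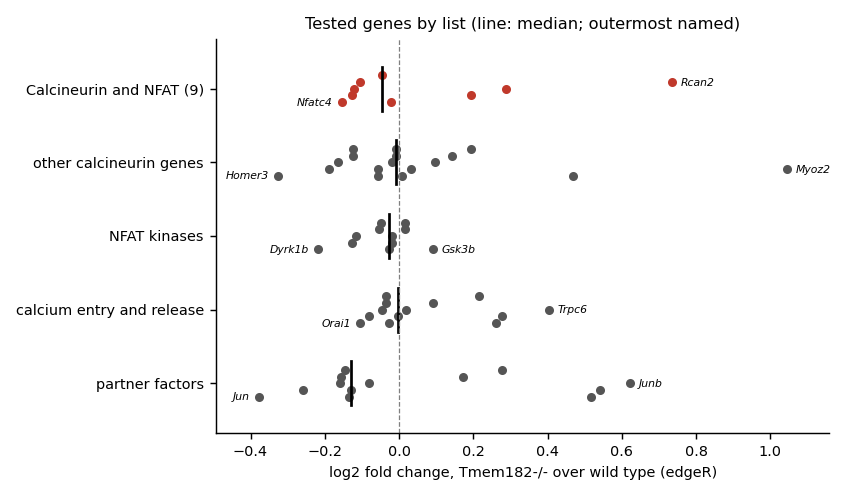
Log2 fold change, Tmem182-/- over wild type (horizontal axis), of the tested genes in each list (rows), with the calcineurin and NFAT genes in red at the top. Each point is a gene, black lines are medians between -0.13 and 0.00, and 0 genes in these lists passed the adjusted threshold.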

How the data were processed

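Per the file headers, the table of each library lists read counts and expression values. These deposited read numbers are expected counts, with 26.2% to 27.5% of values per library not whole, and they were rounded for the tests. The deposited FPKM values are fragments scaled by the authors to transcript length and library total. HISAT2 2.0.4, Bowtie2 2.2.5, RSEM 1.2.12 and GRCm38 were used, per the submitters' processing notes; what each did, the annotation and the strand setting were not given in the sources used here, so genes overlapping an antisense gene are uncertain.

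Genes were filtered by filterByExpr (minimum count 10; 12774 kept), scaled by TMM and tested two-sided by the quasi-likelihood method of edgeR 4.0.16 in R 4.3.3. P-values were adjusted by Benjamini-Hochberg across the 12774 genes, with a threshold of 0.05. SE is the absolute log2 fold change over the root of F. Log2 CPM used a prior count of 2. FPKM values were printed without TMM scaling, so the sign of a small difference can turn between FPKM means and the fit, as for Ppp3cb and Ppp3r1. The slow-fibre level was a covariate beside genotype, in a second fit. Shares of FPKM were compared by two-sided exact permutation tests. Gene positions are from GENCODE M21 on GRCm38 and sequences from RefSeq.

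All members, Tmem182, called list genes and up to 4 genes with the smallest p of each of 4 pathway lists, for genotype and for slope, were named, with the 3 nearest profiles of the 3 most variable members, and 1 gene that the rule names is not reported here; lists also covered slow and fast fibres and cell type markers. Members and lists were chosen with earlier results of these data known. Replicate numbers were not used as pairs in the main fits, and whether they pair the samples is not known here. Alternatives used DESeq2 1.42.0 and limma 3.58.1.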

Additional observations from a re-analysis of the deposited data

How the results depend on the processing

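Between genotypes, 0 members and 0 genes of the 4 pathway lists passed under all 14 alternatives. Over all genes DESeq2's Wald test called 6, and leaving out 1 library gave 0 to 1, the 0 where Tmem182 missed the threshold. The replicate block called 1 gene and 0 members; same-numbered libraries deviated with correlations of 0.52, 0.18 and -0.12, and knockout library 3 was closest to wild-type library 2, at 0.43. For the slope on the slow-fibre level, over all genes DESeq2 called 143, no filter 27, the negative of the fast-fibre level 1, and leaving out 1 library 8 to 1168. Members called ran from 0 to 3 without 1 library, and pathway genes were 2 by DESeq2 and 0 to 11 without 1 library. The 3 members, of 9, and the 11 pathway genes came from the fit without knockout library 2, which called 1168 over all genes. In the main fit the 4 pathway lists held 17, 11, 13 and 13 tested genes, beside 12774 in all. Directions turned over with limma-voom quality weights for Ppp3ca (0.045), Ppp3cb (0.131), Ppp3r1 (0.045) and Rcan2 (-0.002), with limma on log2(FPKM + 1) for Ppp3cb (0.017), Ppp3r1 (0.001) and Dyrk1b (0.001), and with the slow-fibre covariate for Ppp3cb (0.041). With the negative of the fast-fibre level as the covariate, the slopes of Nfatc2 (-0.443) and Crtc1 (0.096) turned over. Leaving out 1 library, log2 fold changes ran from -0.271 to 0.094 for Ppp3ca, -0.183 to 0.178 for Ppp3cb, -0.16 to 0.107 for Ppp3r1, -0.092 to 1.064 for Rcan2 and -0.041 to 0.329 for Nfatc2. Slopes ran from -0.059 to 0.061 for Nfatc1, -0.069 to 0.287 for Nfatc2, -0.033 to 0.008 for Nfatc3 and -0.001 to 0.069 for Junb. Differences in composition ran from -0.134 to 0.0707 for the catalytic sum over Ppp3r1, and in percentage points from -9.08 to 0.461 for Rcan1, -2.76 to 0.71 for Nfatc3 and -0.857 to 0.318 for Nfatc4. The causes were not tested. Nfatc4, Trpc6 and Orai2 rest on few counts, which limits their precision.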

Other observations

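Other marker lists were counted in the same fit. The 11 fast-fibre genes were lower on average in Tmem182-/- muscle in 10 cases, with -0.15 as the median log2 fold change and 0 called. Their summed level was lowest in knockout library 1, at 73400, 106800 and 111900 FPKM in knockout libraries 1, 2 and 3 and 98280, 110500 and 111300 FPKM in wild-type libraries 1, 2 and 3. The 8 slow-fibre genes all had a higher mean in the knockout, with a median of 1.5 and 0 called between genotypes. Adipocyte markers summed to 17.56, 1.53 and 6.54 FPKM in Tmem182-/- muscle, against 3.05, 3.05 and 2.15 FPKM in wild-type muscle. Macrophage markers summed to 18.3, 5.86 and 7.71 FPKM in Tmem182-/- muscle, against 8.09, 6.14 and 6.02 FPKM in wild-type muscle. Mural cell markers, of arterioles and pericytes, summed to 57.9 to 135.6 FPKM in Tmem182-/- muscle, against 57.5 to 101.1 FPKM in wild-type muscle, and fibro-adipogenic markers to 134.2 to 259.6 FPKM in Tmem182-/- muscle and 107.9 to 275.2 FPKM in wild-type muscle. Tendon markers spanned 53.2 to 150.3 FPKM in Tmem182-/- muscle, against 60.5 to 167.8 FPKM in wild-type muscle. Satellite cell markers summed to 1.31 to 1.66 FPKM in Tmem182-/- muscle, against 1.72 to 2.07 FPKM in wild-type muscle. B cell markers reached at most 0.66 FPKM in Tmem182-/- muscle and 0.67 FPKM in wild-type muscle. No gene of these lists was called between genotypes.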
